A study of Mus musculus with 2 samples.

Results

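Guides that were well represented before gasdermin induction and were enriched in the survivors are described here. They were selected on the read counts of both libraries, as guides with at least 1000 and under 3500 reads in the uninduced input whose survivor reads divided by input reads were 0.6 or more. This ratio is called the survivor ratio below. Of 36174 guides in that input range, 597 met the rule, or 1.65%, out of 79633 guides in the library. Because the survivor ratio itself chose them, their high ratios are a description and were not tested.

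The screen knocked out genes in a pool of mouse macrophages, each carrying a guide for Cas9. The cells were bone marrow derived macrophages with Cas9 knocked in at R26 and were immortalised by J2 retrovirus. They were engineered with the Tet3G transactivator and a doxycycline-inducible fragment of gasdermin D (GSDMD), tagged with the fluorescent protein tagBFP. The fragment is the one that caspase cleavage releases from the whole protein, and in these cells it was induced by doxycycline. All cells received the Brie library of single guide RNAs (sgRNAs) by lentivirus with a blasticidin resistance marker, and the 20-base guide barcode was read from genomic DNA after PCR. There were 2 libraries, 1 per group: input cells with no doxycycline, and cells induced for 16 h with doxycycline at 0.5 μg/ml, from which those positive for BFP and negative for propidium iodide (PI) were sorted. The labels or headers call both files combined without saying of what. The input held 86266754 reads and the survivors 16269091, so library totals alone give a survivor ratio of 0.189. With 1 library per group there is no replicate check, no p-value is given, and a difference between these libraries is not a difference between conditions.

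Gasdermin D is the protein that carries out pyroptosis, an inflammatory and lytic death of macrophages. Caspases cut it, and the freed N-terminal fragment inserts into the plasma membrane, oligomerises and forms a pore. Propidium iodide is kept out by an intact plasma membrane, so the sort kept cells that made the tagged fragment and still excluded the dye. A guide is expected to become more common among such cells when loss of its target protects them, and different guides to 1 target then become more common together. The series title names the Ragulator-Rag-mTORC1 pathway, a lysosomal nutrient-sensing complex and kinase; guides to its genes were not identified here. The counts list barcodes without genes, so most members are known by sequence only.

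The guides at the top of the range and those at the threshold are shown first, since they set the scale of all later values. Sequences are given 5′ to 3′ as DNA, from the deposited counts, with the first 3 bases in capitals because the members differed from other guides mainly at their start. The 5 members with the highest survivor ratio come first, then the 3 with the most input reads, then the 2 guides just inside and the 2 just outside the threshold, and last the 2 highest members that start with G.
Highest ratio, guide 1: CACagagggacattcatcaa
Highest ratio, guide 2: AGAtggggccttcacgacca
Highest ratio, guide 3: TTCatcagcctcaataatct
Highest ratio, guide 4: AGTcaaagcattacatacaa
Highest ratio, guide 5: TGGaccgggcaaggcagtac
Most input reads, guide 1: TTTggccacatagtcccctg
Most input reads, guide 2: TGTggctgccaaatgacaca
Most input reads, guide 3: TCTtgtgcacgatttacatg
Just inside, guide 1: TGTgcctacgccattcggct
Just inside, guide 2: CCGgcggatcgtcatctatg
Just outside, guide 1: CCCgaggagaagcgtcgccg
Just outside, guide 2: CAAggctcacagcatactgg
G start, guide 1: GGTgcagtccgtttagtcgg
G start, guide 2: GATgtccacagcgtgcccag

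The guide CACagagggacattcatcaa had the highest survivor ratio, with 1449 input reads and 2630 survivor reads, a ratio of 1.82 (95% exact conditional binomial interval 1.70 to 1.94). That is 9.62 times the ratio of the library totals. The guide AGAtggggccttcacgacca had more reads in both libraries, 2945 and 5165, and a ratio of 1.75 (1.68 to 1.84). Its 5165 reads were the most of any member in the survivors. The guide TTCatcagcctcaataatct followed with 2112 input and 3021 survivor reads, a ratio of 1.43 (1.35 to 1.51). The guide AGTcaaagcattacatacaa had 1124 and 1598 reads, a ratio of 1.42 (1.32 to 1.54). The guide TGGaccgggcaaggcagtac had 1202 and 1672 reads, a ratio of 1.39 (1.29 to 1.50). The first 2 stand apart from the other 3 by more than their intervals, and the other 3 overlap each other. These 5 guides have no common start, and their GC content runs from 30 to 65%. All intervals of single guides cover counting error only, since reads made by PCR and counted without molecular identifiers do not each stand for a molecule.

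The members with the most input reads lay close to the threshold. The guide TTTggccacatagtcccctg had 3378 input and 2196 survivor reads, a ratio of 0.65 (0.616 to 0.686). For TGTggctgccaaatgacaca the counts were 3354 and 2316, a ratio of 0.691 (0.655 to 0.728). For TCTtgtgcacgatttacatg they were 3325 and 2124, a ratio of 0.639 (0.605 to 0.675). The guides just inside the threshold, TGTgcctacgccattcggct with 1774 and 1065 reads and CCGgcggatcgtcatctatg with 1465 and 879, had ratios of 0.6003 and 0.6. The guides just outside, CCCgaggagaagcgtcgccg with 2133 and 1279 reads and CAAggctcacagcatactgg with 1866 and 1118, had 0.5996 and 0.5991. The threshold therefore divides guides that do not differ beyond counting error. Of the 597 members, 405 had an interval wholly at or above 0.6 and 192 had one that reached below it. Another 273 guides of the range lay below 0.6 with an interval that reached it.

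Most members were only moderately above the threshold. Their median survivor ratio was 0.693 (quartiles 0.638 and 0.786), or 3.68 times the ratio of the library totals, while the threshold itself is 3.18 times that ratio. Of the 597, 312 lay below 0.7, 132 reached 0.8 and 32 reached 1. The other 35577 guides of the range had a median of 0.156 (quartiles 0.0834 and 0.252). Survivor reads of members ran from 609 to 5165 with a median of 1001, against 0 to 1873 and a median of 249 in the others. With the same fold over libraries scaled by TMM instead of totals, 1154 guides of the range would pass, or 3.19%. With DESeq2 size factors 1319 would pass, or 3.65%. Members held 1.05% of all input reads and 4.14% of all survivor reads.

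Members were 1.65% of the guides in the input range, and this share was higher at lower input. At 1000 to 1499 input reads 353 of 17412 guides were members, or 2.03% (95% exact binomial interval 1.82 to 2.25%). At 1500 to 1999 reads there were 146 of 10063, or 1.45% (1.23 to 1.70%), and at 2000 to 2499 reads 64 of 5156, or 1.24% (0.957 to 1.58%). At 2500 to 2999 reads there were 23 of 2442, or 0.942% (0.598 to 1.41%), and from 3000 reads 11 of 1101, or 0.999% (0.500 to 1.78%). The lowest level lies above each of the other levels beyond these intervals, and the 4 higher levels overlap their neighbours. The intervals treat guides as independent draws. The typical guide went the other way: the median survivor ratio rose from 0.153 at the lowest level to 0.178 at the highest, while the standard deviation of the ratio over guides fell from 0.153 to 0.123.

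The number of members was set against what sampling would give. Reading the survivors at the ratio of the library totals, with Poisson error alone, gives an expected 0 members. A second expectation lets each guide enter the survivor library as a Poisson number of units, such as cells or DNA copies, in proportion to its input reads. The share of guides with 0 survivor reads, among guides with 30 or more input reads, set this at 3.79 units per 1000 input reads and 49.8 survivor reads per unit. A guide with 1000 input reads then has 3.79 units on average and needs 13 to be a member, and a guide with 3000 has 11.4 and needs 37. If each unit gives equal reads, 1.83 members are expected in all, against 597 observed. If reads per unit vary exponentially, 132 are expected, or 200 with units fitted on the input range alone.

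The ratio of observed to expected numbers grew with input reads, while their difference shrank. With exponential units the expected numbers by level were 111, 17.9, 2.63, 0.358 and 0.0477, from the lowest level to the highest. The observed 353, 146, 64, 23 and 11 fell far more slowly. With equal units the lowest level alone is expected to hold 1.77 of the 1.83. Neither expectation describes the members at the higher levels, where a guide would need many more units than average. How well either describes the spread of the other guides of the range was not tested, so the misfit may not be particular to members. Other forms of unequal reads per unit were not tested.

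Membership differed by the first base of the guide. Among guides starting with T 238 of 8773 were members, or 2.71% (95% exact binomial interval 2.38 to 3.07%), and among those starting with C 198 of 9085, or 2.18% (1.89 to 2.50%). For A it was 116 of 9050, or 1.28% (1.06 to 1.54%), and for G 45 of 9266, or 0.486% (0.354 to 0.649%). Guides starting with G made up 7.54% of the members and 25.9% of the other guides, and guides starting with T 39.9% and 24.0%. The order T, C, A, G held at the 3 lower input levels. At 1000 to 1499 input reads the shares were 3.39% for T, 2.80% for C, 1.54% for A and 0.716% for G. At 1500 to 1999 reads they were 2.51%, 1.92%, 1.16% and 0.201%, and at 2000 to 2499 reads 1.96%, 1.72%, 0.925% and 0.175%. Above that each base had at most 9 members in a level, and G still had the lowest share, with 2 of 521 at 2500 to 2999 reads and 1 of 223 from 3000 reads.

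All guides of the range, not the members alone, differed by first base. The median survivor ratio was 0.122 for G, 0.157 for A, 0.181 for C and 0.185 for T. A common threshold therefore sits further from the typical guide for G than for T. When the threshold was set at the same fold, 3.79, over the median of each first base, G passed most often. Then 155 guides starting with G passed, or 1.67%, against 126 or 1.39% for A, 111 or 1.27% for T and 107 or 1.18% for C. The lower share of G among the members thus turned around under a threshold relative to its own base.

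The expectation from sampling was also computed with the reads per unit set for each first base from its own reads in the range. With exponential units it gave 83.7 members for T, 71.2 for C, 29.8 for A and 3.59 for G. The observed numbers were 238, 198, 116 and 45. With common reads per unit for all bases, exponential units gave 30.4 for T, 31.3 for C, 33.5 for A and 36.4 for G. All 4 bases were above both of these expectations, but the 45 for G lay close to the 36.4 with common units. Expected numbers by base were not computed with units fitted on the input range alone, which gave more members in all. Least above in proportion with common units, and furthest above with units by first base, were the guides starting with G. The highest of those, GGTgcagtccgtttagtcgg, had 1483 input and 1878 survivor reads, a ratio of 1.27 (95% exact interval 1.18 to 1.36). The next, GATgtccacagcgtgcccag, had 2260 and 2586 reads, a ratio of 1.14 (1.08 to 1.21). They were the only guides starting with G whose ratio reached 1, against 14 for T, 8 for C and 8 for A. Among members the median ratio hardly differed by base, from 0.688 for G to 0.697 for C.

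The second base split the guides further. Guides starting with TG were members most often of all 16 starting pairs, in 144 of 3530, or 4.08% (95% exact binomial interval 3.45 to 4.79%). They made up 24.1% of the members and 9.76% of all guides in the range. The other starts with T were at 2.20% for TA, 1.73% for TT and 1.60% for TC, all with intervals below that of TG. At the other end, guides starting with GT were members in 3 of 1427, or 0.21% (0.0434 to 0.613%). The share of TG starts was 5.01%, 4.11%, 3.06%, 1.84% and 2.38% at the 5 input levels, above the share of all guides at each level. The median survivor ratio of TG starts was 0.198, the highest of the 16 pairs. The same letters elsewhere in the guide had no such share: over positions 2 to 19, counted from 1 at the 5′ end, the share of guides with TG at a position lay between 0.914 and 2.45%.

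Among starts of 3 bases the highest shares were 4.90% for TGT (3.60 to 6.50%), 45 of 918 guides, and 4.89% for TGC (3.41 to 6.77%), 34 of 695. Both intervals hold the 4.08% of all TG starts, and TGG at 3.66% and TGA at 3.12% lay below CGT at 3.96%. Of the 64 starts of 3 bases, 6 had no member among 2754 guides together, and 5 of these 6 begin with G. The intervals of these 5 all hold the 0.486% of guides starting with G, so their zeros show nothing beyond the first base. Examples of high TG starts are TGGaccgggcaaggcagtac above, TGCagttgtgaatccaaggg with 1066 input and 1412 survivor reads, and TGTgctgaccaactccgaga with 2769 and 3578. Their ratios were 1.39, 1.32 and 1.29.

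The share of members varied most by base at position 1. The spread between the highest and the lowest share of members over the 4 bases was 2.23 percentage points at position 1, 0.939 at position 2, 0.992 at position 3, 0.717 at position 4, 1.05 at position 5, 0.809 at position 6, 0.479 at position 7 and 0.769 at position 8. At positions 9 to 16 and at 19 and 20 it lay between 0.163 and 0.445. At position 17 it was 0.514 and at position 18 it was 0.69. Position 20, next to the PAM (the NGG motif that Cas9 needs beside its target), had a spread of 0.289. At positions 4 to 10 T was the base with the lowest share in each case. At position 8, for example, guides with A were members in 2.06% and guides with T in 1.29%.

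Members had a mean GC content of 52.5% (SD 9.12, n = 597 guides) and the other guides of the range 52.0% (SD 9.84, n = 35577). The difference of the means was 0.414 percentage points (95% interval over guides -0.324 to 1.15). Compared within first base and input level it was 1.37 points (0.661 to 2.08), so that members were slightly richer in GC than other guides of the same first base and level. By GC content the share of members was 1.50% at 35% GC or less, 1.45% at 40 to 45%, 1.78% at 50%, 1.81% at 55 to 60% and 1.54% at 65% or more. All these intervals hold the 1.65% of the range.

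Features known to affect guides were about as common in members as in other guides. At least 3 CpG dinucleotides were present in 38 members, and 1.53% of guides with them were members (95% exact binomial interval 1.09 to 2.10%). Guides ending in GG were members in 1.81% (1.44 to 2.25%), guides with a run of 4 G in 1.71% (0.958 to 2.80%), and guides ending in TT in 2 of 196. Guides able to form a perfect stem of 5 or more base pairs with a loop of at least 3 bases were members in 1.31% (0.718 to 2.19%). None of these shares lies outside its interval around 1.65%. The median minimum folding energy of the guide alone as RNA was -0.7 kcal/mol in members and -0.8 in the others, with quartiles of -2 and 0 against -2.2 and 0. A run of 4 T, which ends transcription by RNA polymerase III, was present in 10 guides of the range and in no member (0 to 30.8%). With 1.65% of the range being members, so few guides would rarely hold one.

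Overlapping guides were taken as aimed at nearly the same place, and were used to ask whether the partner of a member was also high. The library held 917 pairs with an end-to-end overlap of 14 or more bases on either strand. In 8 of them 1 guide was a member, and in 0 both were. Only 3 of these 8 had both guides in the input range, as a pair of members must. The 8 pairs held 7 members, of which 1 is in 2 pairs. Of the 493 guides in the range with an overlapping partner anywhere in the library, 7 were members, or 1.42% (95% exact binomial interval 0.573 to 2.90%). The 3 pairs with both guides in the input range are shown first, then 2 others with the longest overlaps, which were chosen after their values were seen. Capitals mark the shared stretch, which reads as its reverse complement where the strands are opposite.
Pair 1, member: CAGCTAGGACGGCAACAAGt
Pair 1, partner, same strand: gCAGCTAGGACGGCAACAAG
Pair 2, member: ctccaAGGAAACGATCTACA
Pair 2, partner, opposite strand: agccgTGTAGATCGTTTCCT
Pair 3, member: tgacagTGCTTGGCATTCTG
Pair 3, partner, opposite strand: gttcccCAGAATGCCAAGCA
Pair 4, member: CACGGTGCTACAAGTTCGGa
Pair 4, partner, same strand: aCACGGTGCTACAAGTTCGG
Pair 5, member: ccTTGCACAACTCCATAATG
Pair 5, partner, opposite strand: ctCATTATGGAGTTGTGCAA

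In pair 1 the guides share 19 bases and differ by a shift of a single position. The member CAGCTAGGACGGCAACAAGt had 1084 input and 881 survivor reads, a ratio of 0.813 (95% exact interval 0.743 to 0.889). Its partner had 2040 and 465 reads, a ratio of 0.228 (0.206 to 0.252). The shift by a single base also changes the start of the guide from CA to GC. In pair 2 the member had 1049 and 831 reads, a ratio of 0.792 (0.722 to 0.869), and the partner 1400 and 629, a ratio of 0.449 (0.408 to 0.494), which is above most guides of the range. In pair 3 the member had 1034 and 896 reads, a ratio of 0.867 (0.792 to 0.949), and the partner 1037 and 133, a ratio of 0.128 (0.106 to 0.154). In each pair the ratios differed beyond counting error.

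Pairs 4 and 5 have a partner below the input range. The member of pair 4 had 1156 input and 857 survivor reads, a ratio of 0.741 (95% exact interval 0.678 to 0.811), and its partner, which shares 19 bases, had 520 and 89, a ratio of 0.171 (0.135 to 0.215). Another guide sharing 16 bases with this member had 477 and 123 reads, a ratio of 0.258 (0.210 to 0.315). Pair 5 came closest to agreement. Its member had 1275 and 1213 reads, a ratio of 0.951 (0.879 to 1.03), and its partner, which shares 18 bases, had 864 and 493, a ratio of 0.571 (0.510 to 0.638), itself close to the threshold. Of the 8 partners, 2 lay below 0.158, the median of the range. With 3 pairs inside the range, a share of agreeing pairs could not be measured with any precision.

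Near-identical guides, which differ by a few substitutions, were more numerous. In 13 pairs that differ by 1 base 1 guide was a member, and in 0 of these was the other. Only 11 of the partners lay in the input range and could be members. With 1.65% of the range being members, so few guides would rarely hold one. The partners' ratios ran from 0.0114 to 0.293 with a median of 0.128, and 9 of the 13 lay below the median of the range. The members of these pairs ran from 0.602 to 1.22. The fold between the guides of a pair ran from 2.18 to 65.9 with a median of 6.56, and in 0 pairs did the exact intervals overlap. The changed base lay at positions 4 to 18. Since each member was chosen for a high ratio, a lower partner is partly given by that choice; the partners themselves were not chosen by ratio, and their median of 0.128 lies slightly below the 0.158 of the range. The 5 pairs shown, chosen after their values were seen, are the 3 with the highest member ratio and those 2 whose changed base lies furthest from the 5′ end and whose values are given below. Capitals mark the base that differs.
Pair 6, member: tgcaggaaAcggatctccag
Pair 6, partner: tgcaggaaGcggatctccag
Pair 7, member: tgtGactcctgtgaaagacc
Pair 7, partner: tgtAactcctgtgaaagacc
Pair 8, member: caacgtgagtgaTaccaacc
Pair 8, partner: caacgtgagtgaGaccaacc
Pair 9, member: tgttgtttggaaatatCgtg
Pair 9, partner: tgttgtttggaaatatTgtg
Pair 10, member: atgaggaccacatagagCag
Pair 10, partner: atgaggaccacatagagGag

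In the following tokens the member's base comes first, then the position from 1 at the 5′ end, then the partner's base. In pair 6, A9G, the member had 1316 input and 1612 survivor reads and the partner 1360 and 254. Their input reads were nearly equal, while their ratios were 1.22 (95% exact interval 1.14 to 1.32) and 0.187 (0.163 to 0.214), the latter at the ratio of the library totals. In pair 7, G4A, the member had 1637 and 1399 reads and the partner 2317 and 296, with ratios of 0.855 (0.795 to 0.918) and 0.128 (0.113 to 0.144). In pair 8, T13G, the partner was almost absent from the survivors, with 13 reads from 1137 in the input, a ratio of 0.0114 (0.00607 to 0.0196). Its member had 1298 and 978, a ratio of 0.753 (0.693 to 0.819). In pair 10, C18G, the member had 1410 and 849 reads, a ratio of 0.602 (0.552 to 0.656), and the partner 640 and 80, a ratio of 0.125 (0.0978 to 0.158).

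The single pair of members within 3 substitutions belongs to a family of 4 guides that differ only at positions 15 to 17, shown in capitals.
Family, guide 1: tgttgtttggaaatATCgtg
Family, guide 2: tgttgtttggaaatGTAgtg
Family, guide 3: tgttgtttggaaatATTgtg
Family, guide 4: tgttgtttggaaatACAgtg
Guides 1 and 2 are members. Guide 1 had 2290 input and 1459 survivor reads, a ratio of 0.637 (95% exact interval 0.596 to 0.681), and guide 2 had 2625 and 1605, a ratio of 0.611 (0.574 to 0.651). These ratios agree within counting error. Guide 3, the partner in pair 9 by C17T, had 1531 and 206 reads, a ratio of 0.135 (0.116 to 0.156). Guide 4 had 216 input reads and 0 in the survivors, where a count of 0 allows up to 3 reads. Only 2 of the 4 guides thus agreed, and whether the 4 share targets was not examined.

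Guides with a near-identical partner were also compared with the rest of the range. Of 575 guides in the range with a partner at 1 substitution anywhere in the library, 13 were members, or 2.26% (95% exact binomial interval 1.21 to 3.84%). Their starting pairs of bases and input levels alone would give 1.77%. With up to 3 substitutions it was 33 of 1665, or 1.98% (1.37 to 2.77%), against 1.77%. Among the 34509 guides without a partner within 3 substitutions it was 564, or 1.63% (1.50 to 1.77%). These intervals overlap. Where the partner also lay in the input range the share was higher, 11 of 272 or 4.04% (2.04 to 7.12%) at 1 substitution, against 1.82% from starts and levels. At up to 2 substitutions it was 21 of 536, or 3.92% (2.44 to 5.93%), against 1.87%, and at up to 3 it was 26 of 906, or 2.87% (1.88 to 4.18%), against 1.85%. Guides that share a partner are not independent draws, which these intervals do not take in. Of the 32 partners in the range at up to 3 substitutions from a member, 2 were members themselves, or 6.25% beside the 1.65% of the range. They are the pair of the family above, and both start with TG, where 4.08% of guides were members. Of the 32 partners, 19 lay below the median of the range. At up to 4 substitutions 8 of 72 partners were members, or 11.1%, in 4 pairs, and the partners' median ratio was 0.168. The share that starts and levels alone would give was not computed for partners of members.

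A few members could be placed in the genome. The RefSeq promoter windows of GRCm38.p6 cover 250 bases before to 50 after each gene start, and a guide was placed where its 20 bases lay in a window on either strand with an NGG PAM beside them. This placed 638 guides of the library, 1 of them through a miRNA hairpin searched in the same way, and 271 of the guides in the input range. Of these 7 were members, or 2.58% (95% exact binomial interval 1.04 to 5.25%). The window was that of Gssos2 for the member in Gss, Gm36428 for Apold1, Gm41074 for Fst, Gm36402 for Zfp169 and Fndc11 for Srms. For the others it was that of Ccdc116 or Hcrtr1. Each member lay inside the span of at least 1 protein-coding gene, named below, and whether in an exon or an intron was not examined. The gene a guide was designed for, and further matches elsewhere in the genome, were not examined either.
In Gss, chr2:155567806-155567825, minus strand: ACAgctggctgggactaaga
In Apold1, chr6:134983829-134983848, minus strand: CACggccgacgccacgagcg
In Fst, chr13:114456361-114456380, minus strand: ACTgcatcccttgtaaaggt
In Zfp169, chr13:48491338-48491357, plus strand: CGGactagcaaaggataccg
In Ydjc and Ccdc116, chr16:17147299-17147318, minus strand: TGAggagcgacgaggcgttg
In Srms, chr2:181212366-181212385, plus strand: ACTtacggttggtctgaggg
In Hcrtr1, chr4:130137413-130137432, plus strand: AGAaaacagacacctaccca

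The placed member with the highest ratio lies in Gss, which encodes glutathione synthetase, the enzyme of the last step of glutathione synthesis. It had 1071 input and 936 survivor reads, a ratio of 0.874 (95% exact interval 0.800 to 0.955). Another 2 guides were placed in Gss, both below the input range. AGTcagtataattcacaggt had 520 input reads and 0 survivor reads, and GTTctctggaccaaaaccga had 284 and 126, a ratio of 0.444 (0.357 to 0.549). The 3 guides of Gss thus ran from absent to high.

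Apold1, which encodes a protein with an apolipoprotein L domain known from endothelial cells, had 4 placed guides, all in the input range. The member had 2383 input and 1653 survivor reads, a ratio of 0.694 (95% exact interval 0.651 to 0.739). The others, GCTgagtgacaaccccacga, GCTacgcaggcgctccctgg and GGAttgctgctggaccgccg, had 1821 and 256, 1610 and 116, and 1302 and 76 reads. Their ratios were 0.141 (0.123 to 0.160), 0.072 (0.0592 to 0.087) and 0.0584 (0.0457 to 0.0736), all below the median of the range. The member starts with C and the other 3 with G.

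The remaining placed members had 1 partner or none. The member in the span shared by Ydjc and Ccdc116 had 1597 and 1040 reads, a ratio of 0.651 (95% exact interval 0.602 to 0.705), and AGGttggcgtgaagacccgt in the same span had 1032 and 346, a ratio of 0.335 (0.296 to 0.379). In Srms, which encodes a Src-related tyrosine kinase, the member had 1238 and 761 reads, a ratio of 0.615 (0.561 to 0.673), against 1524 and 341, a ratio of 0.224 (0.198 to 0.252), for GGAactgagcgtcagccgtg. In Hcrtr1, which encodes an orexin receptor, the member had 1396 and 841 reads, a ratio of 0.602 (0.552 to 0.657), against 1425 and 111, a ratio of 0.0779 (0.0636 to 0.0945), for CTAcccgaagcagtacgagt. In Fst, which encodes the activin-binding protein follistatin, and in Zfp169, a zinc finger gene, the member was the only guide placed. Those members had 1958 and 1310 reads, a ratio of 0.669 (0.623 to 0.718), and 1502 and 993, a ratio of 0.661 (0.610 to 0.717). Of the 8 other guides placed in these genes 6 lay in the input range and 0 of these were members; with 1.65% of the range being members, so few guides would rarely hold one. Their ratios ran from 0.0584 to 0.335 with a median of 0.109. That they lie below the members is again partly given by the choice of members for a high ratio.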

How the data were processed

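The authors deposited raw read counts per 20-base guide barcode, as whole numbers that were not normalized, per the file headers. How reads were assigned to barcodes is not stated in these sources. Groups followed the treatment label of each sample. Both count files were joined by barcode and used as deposited. The members, features and comparisons were chosen with earlier results of these data known. Guides shown follow the rule stated with them: the 5 highest ratios, the 3 most input reads, 2 on each side of the threshold, pairs with both guides members and overlapping pairs within the input range; the others were chosen after their values were seen. Sampling expectations were computed analytically and tested on simulated data. Shares and single-guide ratios have exact 95% intervals (Clopper-Pearson, conditional binomial for ratios). A count of 0 allows 3 reads, or 0.0348 RPM (reads per 1000000) in the input and 0.184 in the survivors. Folding used RNAfold 2.7.2 at 37 °C. Coordinates are 1-based. Alternatives covered threshold, input range, pseudocount, scaling (edgeR 4.0.16 TMM, DESeq2 1.42.0 size factors, used for scaling only), overlap length and substitutions. Python 3.11.15, numpy 2.4.6, pandas 2.3.3, scipy 1.17.1 and R 4.3.3 were used.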

Additional observations from a re-analysis of the deposited data

How the results depend on the processing

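No paired analysis was possible because both groups hold a single library, which also means that leaving out a replicate could not be tried. Of 28 alternatives 12 stayed close to the reported value, 15 moved and 1 reversed. The 597 members, 1.65% of the range, became 1310 (3.62%) at a ratio threshold of 0.5 and 198 (0.547%) at 0.75. With TMM scaling there were 1154 (3.19%) and with DESeq2 size factors 1319 (3.65%). The number of guides itself differed with no lower limit on input reads, where 2772 of 77419 passed (3.58%). It also differed from 1500 input reads, where 244 of 18762 passed (1.30%). The 1.83 members expected from sampling became 132 with exponential reads per unit, 4.66 when fitted on the input range, 3.81 with absence defined as 2 or fewer survivor reads, and 6.73 or, with exponential units, 188 with reads per unit by first base; these last 2 were added after seeing the data. The share of G starts minus that of T starts, -2.23 percentage points, was -4.51 at a threshold of 0.5 and -0.817 at 0.75, and reversed to 0.408 with a threshold relative to the median of each first base. Near-identical pairs with both guides members rose from 1 to 4 with up to 4 substitutions, and the GC difference from 0.414 to 1.37 points when matched on first base and input level. Overlapping pairs with both guides members stayed at 0 under all 5 alternatives. Those limited to at least 16 bases, the same strand or opposite strands are parts of the main set and could only give 0. They are counted among the 12 but say nothing about stability. The cause of these shifts was not tested. Overlapping pairs with a member were few, 3 in the input range and 8 in the library.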
